A study of Mus musculus with 50 samples.

Results

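Eicosanoids are short-lived lipid signals made from arachidonic acid. The 10 genes described here make, break down or receive them, and were the rows of the count table named Alox5, Alox5ap, Ltc4s, Ptgs1, Ptgs2, Ptges, Ptgds, Hpgd, Ptger2 and Ptger4, out of 45792 genes in all. They were selected on the tumour against liver levels of these same libraries, Alox5 being among the genes most raised in tumours. For that contrast the members are therefore described, with no test. Another 54 genes of the pathway, from phospholipases to receptors, were followed as a list and are tested throughout.

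RNA-seq was performed on C3H/He mice culled at 48 weeks of age, and the study's methods describe male animals. The methods name C3H/HeNHsd or C3H/HeNCrl mice from different suppliers, and the labels do not say which mouse was of which kind. Non-tumour livers came from 12 mice on the control diet (libraries N1 to N12) and 11 mice on the ALIOS diet, a high trans-fat diet with fructose in the drinking water (N13 to N23). Spontaneous tumours came from 12 ALIOS fed mice and 1 control mouse (T7), and a further 13 tumours (8 of ALIOS fed and 5 of control mice) came from animals treated with the liver carcinogen diethylnitrosamine (DEN). The dose of DEN is not given in the sources used here, and no non-tumour liver of a DEN-treated mouse was analysed, so DEN tumours were set against livers without DEN, where tumour and DEN cannot be told apart. The labels do not say which tumour and liver came from the same mouse, nor that every DEN tumour came from a separate mouse, so p-values measure the spread between these libraries.

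Between 23798251 and 45751398 reads were counted per library, with a median of 32312653. Hepatocyte markers summed to at least 66130 CPM in all 49 libraries used, most of it from Alb (CPM is the deposited count scaled by the TMM-adjusted library size). A tumour library labelled T1 was left out, since its hepatocyte markers summed to 994 CPM and its kidney markers Kap, Slc34a1 and Umod to 27430 CPM, against at most 5.49 CPM elsewhere. Tumour T2 stood near the livers in Igdcc4 (0.187 CPM, where the highest liver had 0.422). Its Afp (3.48 CPM) and Gpc3 (2.13 CPM) were the lowest of all tumours used. For spontaneous ALIOS tumours against livers, the differences of Alox5, Hpgd, Ptger2, Cyp2c50 and Cyp2c29 are therefore also given without T2. T6 was the next lowest in Afp (4.91 CPM) and Gpc3 (2.79 CPM). In the study's clustering T6 was the single tumour placed within the non-tumour livers. Tumour T24 stood apart in other ways. Its level of the hepatocyte marker Cps1 was 3.64 CPM, while every other library used had 742 CPM or more. Its mast cell markers (Cpa3, Mcpt4, Cma1, Tpsb2 and Fcer1a) summed to 4.33 CPM against at most 0.145 CPM in the other libraries, its platelet markers to 31.6 CPM and its stellate cell and fibroblast markers to 789 CPM.

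By way of background, arachidonic acid is released from membranes by phospholipases and then takes one of several routes. 5-lipoxygenase, encoded by Alox5 and working with the membrane protein encoded by Alox5ap, starts the leukotriene route, which Ltc4s carries on to the cysteinyl leukotrienes. The cyclooxygenases Ptgs1 and Ptgs2 start the prostanoid route, in which Ptges makes prostaglandin E2 and Ptgds prostaglandin D2. Hpgd inactivates prostaglandins and is abundant in normal liver, whereas Alox5 and its partners are best known from myeloid cells such as macrophages, neutrophils and mast cells. Ptger2 and Ptger4 are receptors for prostaglandin E2. All counts are of bulk tissue, where fewer cells of a type and less RNA per cell cannot be told apart.

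Alox5 and Hpgd were the members whose DEN tumours did not overlap the livers of their diet, the former higher and the latter lower. The 250 bases before their RefSeq transcription starts (GRCm38.p6) are shown for that reason. How many of all genes separated in this way was not counted, so no rarity is claimed for these members. By edgeR at an adjusted p under 0.05, 47.5% of all genes tested differed between DEN tumours and livers in ALIOS fed mice. In control mice 51.7% did. Alox5 lies on the minus strand of chromosome 6, from 116410077 to 116461178 in Gencode M21, and its window is chr6:116461179-116461428. Hpgd lies on the plus strand of chromosome 8, from 56294585 to 56321043, with its window at chr8:56294302-56294551. Capitals mark the GC box GGGCGG, searched on both strands, which in Hpgd reads in reverse complement.
Alox5: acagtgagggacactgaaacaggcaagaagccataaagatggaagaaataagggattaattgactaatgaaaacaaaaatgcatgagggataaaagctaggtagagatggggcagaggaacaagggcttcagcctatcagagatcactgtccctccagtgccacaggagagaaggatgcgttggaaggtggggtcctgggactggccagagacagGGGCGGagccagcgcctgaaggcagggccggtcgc
Hpgd: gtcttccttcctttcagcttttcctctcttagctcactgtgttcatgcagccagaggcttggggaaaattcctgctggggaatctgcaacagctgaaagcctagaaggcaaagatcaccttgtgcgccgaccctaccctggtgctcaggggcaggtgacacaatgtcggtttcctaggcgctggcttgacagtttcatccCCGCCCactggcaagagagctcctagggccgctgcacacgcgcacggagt
The GC box began 35 bases before the start in Alox5 and 50 bases before it in Hpgd. Of the 9 members with a window in the RefSeq table, 5 held it (Alox5, Ptgs2, Ptges, Hpgd and Ptger4), as did 32.7% of all 32851 windows. In Ptger4 it occurred 4 times, with 2 of the matches overlapping by 1 base. The letters TATAAA, present in 12.4% of all windows on either strand, were in none of the 9. Ptgds alone held TGAGTCA, the AP-1 site found in 4.5% of windows. The window of Alox5 had 5 CpG and that of Hpgd 9, beside a median of 6 over all windows. These matches describe the letters and were not tested for binding.

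Alox5 was close to absent from non-tumour liver. In the 12 control diet livers it had from 0 to 7 reads each, with a lowest level of 0 CPM in 3 livers, a median of 0.0938 CPM and a highest level of 0.223 CPM in N7. In the 11 ALIOS livers the lowest was 0.0357 CPM, the median 0.0975 CPM and the highest 0.217 CPM, so that the liver groups overlapped throughout. Its 12 spontaneous ALIOS tumours ran from 0.112 CPM in T2, which is 3 reads, through a median of 23.6 CPM to 82.5 CPM in T9. All of them except T2 were above every ALIOS liver. Tumours T6 (1.39 CPM) and T5 (4.60 CPM) were the next lowest. The single control diet tumour, T7, had 55.3 CPM or 1907 reads.

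In the 8 DEN tumours of ALIOS fed mice Alox5 had a lowest level of 0.948 CPM in T24, a median of 34.0 CPM and a highest level of 85.3 CPM in T26. The libraries T24, T23 (3.63 CPM) and T25 (6.76 CPM) were low and the other 5 were at 28.96 CPM or more. The 5 DEN tumours of control diet mice were closer together, with 99.4 CPM in T17, 88.2 CPM in T21, 66.3 CPM in T19, 61.5 CPM in T18 and 45.3 CPM in T20. None of the 13 DEN tumours overlapped the livers of its own diet. Ordered by median the groups ran from control liver and ALIOS liver, which did not differ beyond their spread, to spontaneous ALIOS tumours, ALIOS DEN tumours, the single control diet tumour and control diet DEN tumours, where each tumour group overlapped its neighbour.

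**Figure D1:**
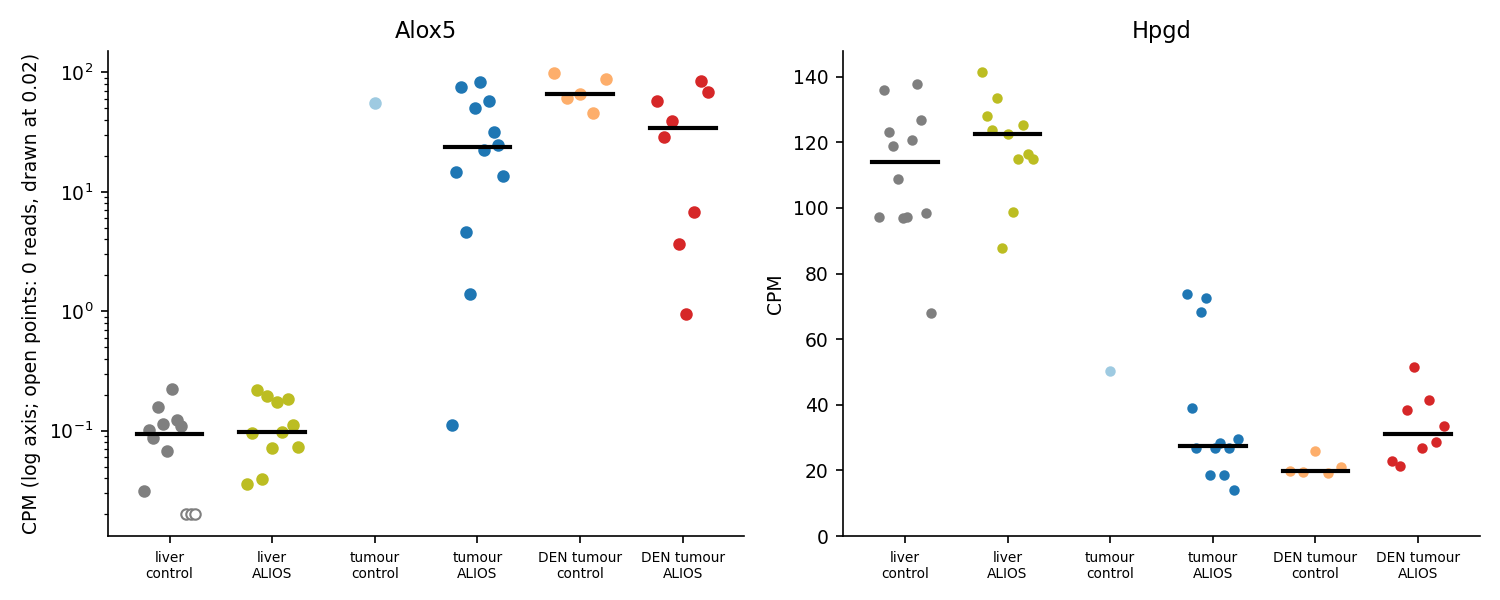
Level of Alox5 (left, CPM on a log axis) and Hpgd (right, CPM from 0) in each of the 49 libraries by group, with a black line at the median of each group of more than 1 library and open points for livers with 0 reads. Alox5 is at or under 0.223 CPM in all livers and spans 0.112 to 99.4 CPM in tumours, while every tumour of the 3 replicated tumour groups lies under every liver of its diet in Hpgd.

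On the log2 scale Alox5 was 7.95 higher (SE 0.82) in spontaneous ALIOS tumours than in ALIOS livers, and 8.07 higher without T2. The difference was 8.22 (SE 0.76) for the ALIOS DEN tumours and 9.65 (SE 0.29) for the control diet DEN tumours, each against livers of its own diet. Since the 11 ALIOS livers held 39 Alox5 reads between them, these folds depend on the prior count of the fit and on few liver reads. The gene also passed the filter on low counts through its tumours alone, and it dropped out of that filter when any spontaneous tumour other than T2 was left out. Refitted without the filter, a choice made after seeing the data, the difference stayed between 7.75 and 8.10 whichever tumour was left out.

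Alox5ap, unlike Alox5, overlapped between tumours and livers. This gene (chromosome 5, 149264767 to 149288153), whose product presents arachidonic acid to 5-lipoxygenase, had a lowest, median and highest level of 0.942, 1.64 and 3.92 CPM in control livers and 1.27, 2.24 and 3.77 CPM in ALIOS livers. In spontaneous ALIOS tumours the corresponding levels were 0.446, 1.49 and 3.02 CPM, and in control diet DEN tumours 0.766, 1.47 and 2.92 CPM. All these groups overlapped. The ALIOS DEN tumours had 0.601 to 2.21 CPM apart from T24, which at 8.03 CPM (432 reads) was the highest of all libraries. Per kilobase of exon, the scale on which genes can be compared, the median level of Alox5ap in control livers was 1.16 CPM per kb beside 0.0228 for Alox5. In control diet DEN tumours it was 1.03 CPM per kb beside 16.2 for Alox5, so the order of the genes turned between liver and tumour. Markers of hepatocytes and of myeloid cells differed between tumour and liver. Of the 6 hepatocyte markers 4 had a higher median in tumours in each of the 3 comparisons. Medians of their sum were 178300 CPM in spontaneous ALIOS, 171300 CPM in ALIOS DEN and 182900 CPM in control diet DEN tumours. The livers had 98560 CPM on the ALIOS and 111700 CPM on the control diet. All 5 Kupffer cell markers had a lower median in tumours in each of the 3 comparisons, with medians of the sum of 79.0 CPM in spontaneous ALIOS, 130 CPM in ALIOS DEN and 87.2 CPM in control diet DEN tumours, against 320 CPM in ALIOS and 211 CPM in control livers. Of the 5 macrophage markers 4, 4 and 3 were lower, though medians of their sum were 148, 139 and 105.5 CPM against 147 CPM in ALIOS and 93.8 CPM in control livers. These sums include Cd14, which went the other way. It ran from 1.68 to 11.7 CPM in ALIOS and 1.56 to 6.89 CPM in control livers. In the tumour groups, in the same order, it ran from 7.77 to 105.5, 9.35 to 94.5 and 21.5 to 53.4 CPM. Sums without Cd14 were not taken. In turn 5, 4 and 5 of the 5 recruited macrophage markers were higher, with medians of the sum of 17.2, 18.5 and 19.2 CPM against 11.6 and 4.01 CPM in the livers. Of the 6 neutrophil markers 3, 6 and 4 were lower, with medians of the sum of 8.56, 3.92 and 5.20 CPM against 6.82 and 3.81 CPM in the livers. The part of all these cells in the values of the members was not tested.

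Ltc4s, which conjugates leukotriene A4 with glutathione, was measured with few reads, from 0 to 12 per liver. Its median was 0.209 CPM in control livers and 0.158 CPM in ALIOS livers. In the 12 spontaneous ALIOS tumours it was 0.342 CPM (lowest 0.0985, highest 0.804), in the 5 control diet DEN tumours 0.326 CPM (0.235 to 0.521) and in the 8 ALIOS DEN tumours 0.420 CPM (0.167 to 1.30). The highest library was again T24, with 70 reads. Ltc4s failed the filter on low counts in all 3 tumour against liver comparisons and in the diet comparison of livers.

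The cyclooxygenases had very different levels. Ptgs1, the constitutive enzyme, had a median of 9.50 CPM in control livers (7.82 to 13.1) and 12.7 CPM in ALIOS livers (8.83 to 23.8). Spontaneous ALIOS tumours had a median of 8.56 CPM (4.49 to 18.9), and the DEN tumours 11.5 CPM on the ALIOS diet (5.58 to 21.2) and 9.69 CPM on the control diet (3.82 to 13.7), all overlapping the livers. Ptgs2, the inducible enzyme, was near the limit of this depth. It had no read in 10 of 12 control livers, 4 of 11 ALIOS livers and 6 of 12 spontaneous ALIOS tumours, and its highest level was 0.297 CPM, from 16 reads in T24. Ptgs2 failed the filter in every comparison.

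Of the prostanoid synthases, Ptges was at a median of 2.03 CPM in control livers (0.761 to 3.22), 1.33 CPM in ALIOS livers (0.715 to 3.25), 1.88 CPM in spontaneous ALIOS tumours (0 to 5.56) and 2.41 CPM in control diet DEN tumours (1.78 to 3.56). The ALIOS DEN tumours had 0.522 CPM in T22, 1.07 CPM in T16, 1.86 CPM in T26, 1.88 CPM in T15, 3.70 CPM in T27, 4.83 CPM in T23, 4.88 CPM in T25 and 25.5 CPM in T24. T24 thus held 1369 of the 2035 Ptges reads of its group, and the tumour minus liver difference of 1.84 (SE 0.54) on the log2 scale was 0.83 without it. Beside Ptges, T24 was also highest of the group in Alox5ap, Ltc4s, Ptgs2 and Ptger4 and lowest in Alox5. Its mast cell, platelet, stellate and recruited macrophage (152 CPM) markers were the highest of all 49 libraries, and their part in these values was not tested.

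Ptgds had a median of 0.826 CPM in control livers (0.305 to 6.58, where N7 alone was above 1.6) and 0.569 CPM in ALIOS livers (0.163 to 1.57). In tumours most libraries had 0 to 5 reads, with a median of 0.0485 CPM in spontaneous ALIOS tumours (highest 0.867), 0.0273 CPM in ALIOS DEN tumours (highest 1.95, in T25) and 0.0335 CPM in control diet DEN tumours (highest 0.391). Tumours were lower than livers by 1.80 (SE 0.59), 0.92 (SE 0.78) and 3.62 (SE 0.92) on the log2 scale in the 3 comparisons, in that order. The first became -0.785 when T1 was kept, the second -2.39 without T25 and the third -5.22 without T19. Without the control liver N7 the group it belongs to ends at 1.59 CPM.

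Hpgd had the highest level in liver of the members per kilobase of exon, at a median of 67.7 CPM per kb in control livers, and was lower in tumours. Control livers had a lowest, median and highest level of 68.1, 114 and 137.6 CPM, and ALIOS livers 87.7, 122 and 141.5 CPM. Spontaneous ALIOS tumours had 14.1, 27.6 and 73.9 CPM, and all 12 were under the lowest ALIOS liver. ALIOS DEN tumours had 21.3 CPM in the lowest (T16), 31.1 CPM at the median and 51.6 CPM in the highest (T23), and control diet DEN tumours had 26.03, 21.1, 19.7, 19.5 and 19.2 CPM in T19, T21, T17, T18 and T20. Tumour T7 had 50.2 CPM. The log2 difference was -1.71 (SE 0.25) in spontaneous ALIOS tumours, -1.83 (SE 0.16) in ALIOS DEN tumours and -2.37 (SE 0.16) in control diet DEN tumours. In the ALIOS spontaneous comparison it was -1.85 without T2.

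The receptor genes were low. Ptger2 had medians of 0.807 CPM in control livers (0.643 to 1.17) and 1.01 CPM in ALIOS livers (0.779 to 1.29), against 0.461 CPM in spontaneous ALIOS tumours (0.123 to 1.27), 0.471 CPM in ALIOS DEN tumours (0.142 to 1.35) and 0.384 CPM in control diet DEN tumours (0.214 to 1.17). In each comparison tumours were lower by 0.81 to 0.85 on the log2 scale, with an SE of 0.31 to 0.33, and the ranges overlapped. In spontaneous ALIOS tumours the difference was -0.99 without T2, and in control diet DEN tumours -1.38 without T17. Ptger4 had a median of 0.137 CPM in control livers (0 to 0.536) and 0.379 CPM in ALIOS livers (0.0357 to 1.56), and 0.523, 0.566 and 0.397 CPM in the spontaneous ALIOS, ALIOS DEN and control diet DEN tumours. It overlaps the protein-coding gene Ttc33 on the other strand, which had 24344 reads in the 49 libraries, and since the strand setting of the counting is not stated its values are uncertain. Genes of other kinds that overlap the remaining members had at most 112 reads.

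**Figure D2:**
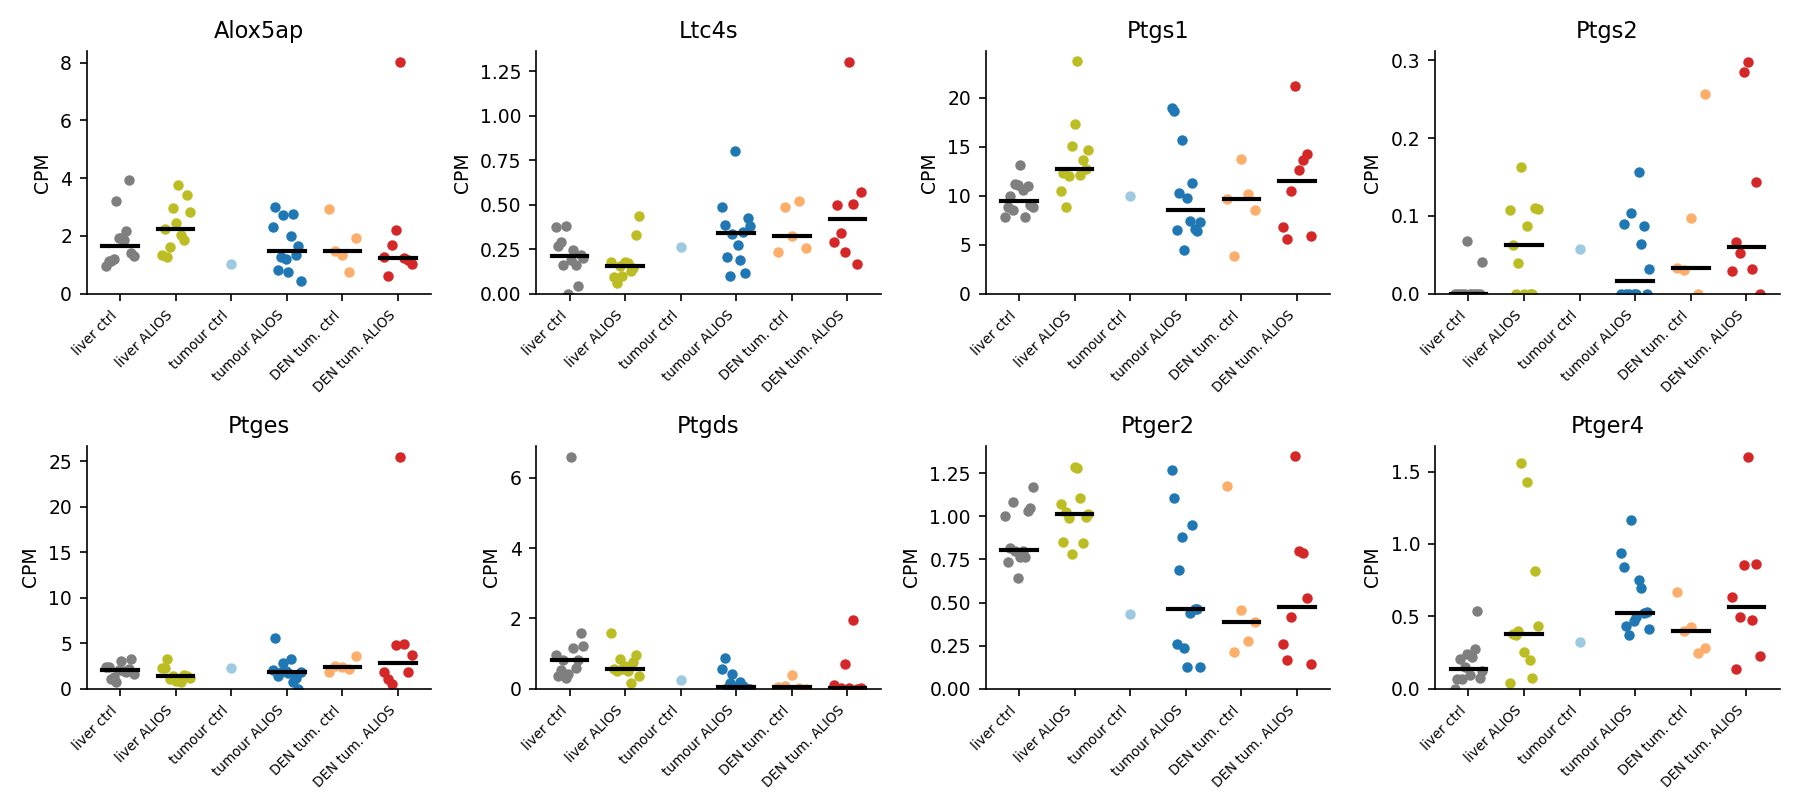
Level (CPM, axis from 0) of the other 8 members in each of the 49 libraries, by group, with a black line at the median of groups of more than 1 library. The single high point of Alox5ap (8.03), Ltc4s (1.30), Ptges (25.5) and Ptger4 (1.60) in the ALIOS DEN tumours is T24, and that of Ptgds (6.58) in control livers is N7.

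**Figure D3:**
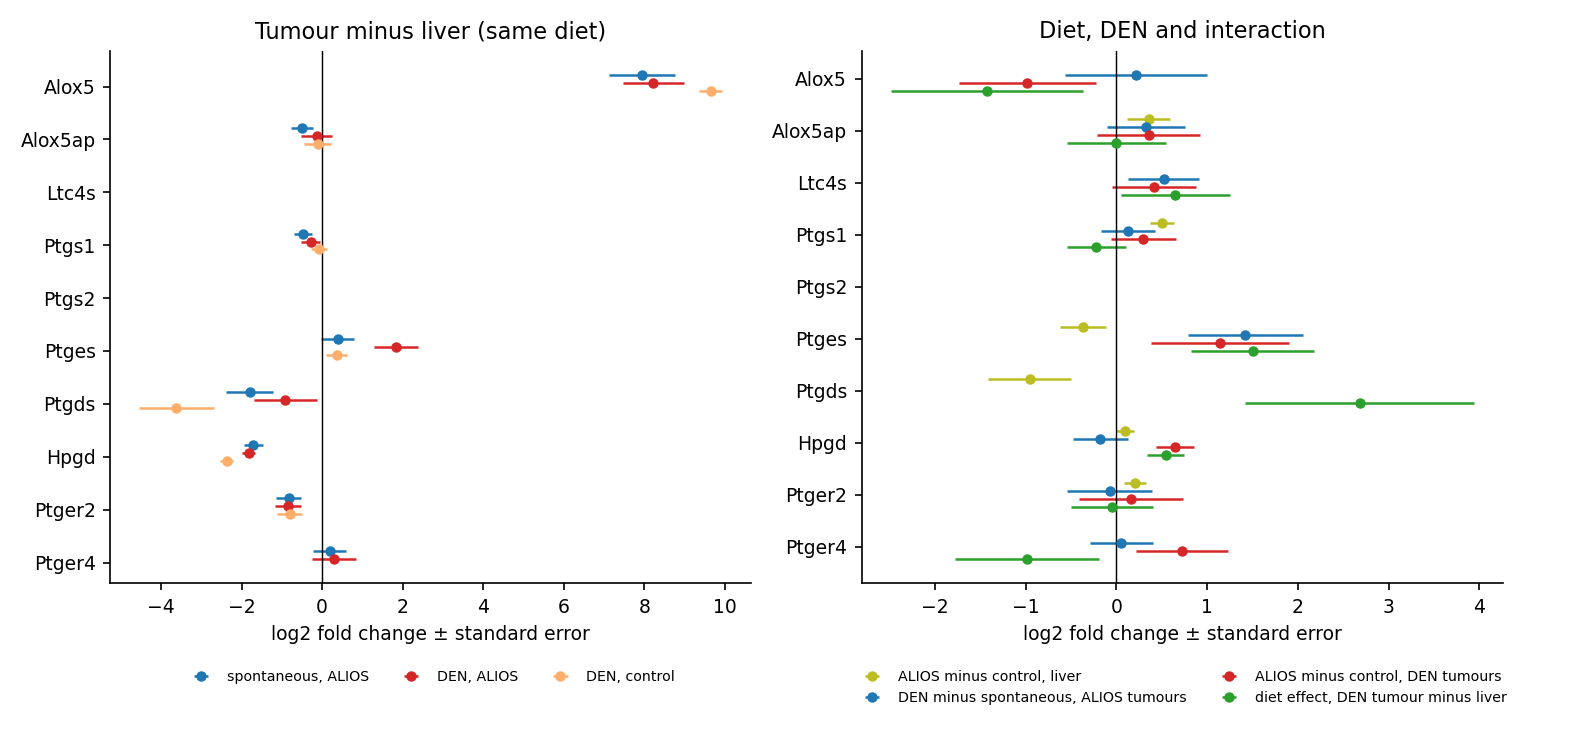
Log2 fold change with its standard error for each member that passed the filter on low counts, in the 3 tumour against liver comparisons (left) and in the diet, DEN and interaction comparisons (right). Alox5 lies at 7.95 to 9.65 and Hpgd at -2.37 to -1.71 on the left, and on the right Ptgs1 in liver, at 0.50, is the one value that passed the test.

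The other genes of the pathway, a list also drawn up with results of these libraries known, are given for the same contrasts. In spontaneous ALIOS tumours 5 of 35 rose and 15 fell by the quasi-likelihood test of edgeR at a Benjamini-Hochberg adjusted p under 0.05, where 26.9% of all genes tested rose and 25.9% fell. The falls included 7 of the 9 tested genes of the cytochrome P450 branch, which turns arachidonic acid into epoxides and hydroxylated products. The lowest were the epoxygenases Cyp2c50 (log2 fold change -3.32, SE 0.88, adjusted p = 0.00283) and Cyp2c29 (-3.22, SE 0.78, adjusted p = 0.00146) and the hydroxylase Cyp4a12a (-3.05, SE 0.83, adjusted p = 0.00356). Cyp2c50 went from a median of 403 CPM in ALIOS livers (186 to 679) to 7.92 CPM in the tumours (0.231 to 168), without overlap. Without T2 the differences of Cyp2c50 and Cyp2c29 were -3.80 and -3.55, and 24 pathway genes were called. The highest were Ptgr1, an enzyme acting on leukotriene B4 and prostaglandins (1.22, SE 0.17, adjusted p = 5.20e-06), the thromboxane receptor Tbxa2r (0.99, SE 0.27, adjusted p = 0.00395) and the prostaglandin F receptor Ptgfr (0.94, SE 0.35, adjusted p = 0.0252, all edgeR). The call of Ptgfr was lost when all groups were fitted together (adjusted p = 0.0811).

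In DEN tumours on the ALIOS diet 2 of 36 pathway genes rose, namely Abcc4, an exporter of prostaglandins (2.18, SE 0.55, adjusted p = 0.00310), and Ptgr1 (1.40, SE 0.22, adjusted p = 4.06e-05), and 10 fell, led by Cyp2c50 (-2.76, SE 0.69), the leukotriene B4 hydroxylase Cyp4f14 (-2.07, SE 0.60) and Cyp2j5 (-2.03, SE 0.61). Over all genes 27.7% rose and 19.8% fell. Of 9 P450 branch genes 5 fell. Cyp4a10 and Cyp4a14, which were not called, had 541 and 145 CPM in T24. The next highest tumour of the group, T23, had 44.8 and 13.5 CPM. T24 was the highest in Abcc4 with 52.6 CPM, where the group's median was 3.55 CPM. Without T24 the difference of Abcc4 was 0.75 (SE 0.25, adjusted p = 0.0177, edgeR), and 18 pathway genes were called, against 12. On the control diet 6 of 35 rose and 14 fell, beside 27.3% and 24.4% of all genes, with 8 of the 9 P450 branch genes among the falls. Cyp4a14 (-5.49, SE 0.84), Cyp2c50 (-5.37, SE 0.84) and Cyp2c29 (-5.36, SE 0.90) were the lowest, and Abcc4 (2.18, SE 0.27), Ptgr1 (1.86, SE 0.17) and the prostaglandin D synthase Hpgds (1.24, SE 0.34) the highest. Ptgr1 went from a median of 5.78 CPM in control livers (3.96 to 7.62) to 20.6 CPM in these tumours (12.9 to 27.9), without overlap, and rose in all 3 comparisons.

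**Figure D4:**
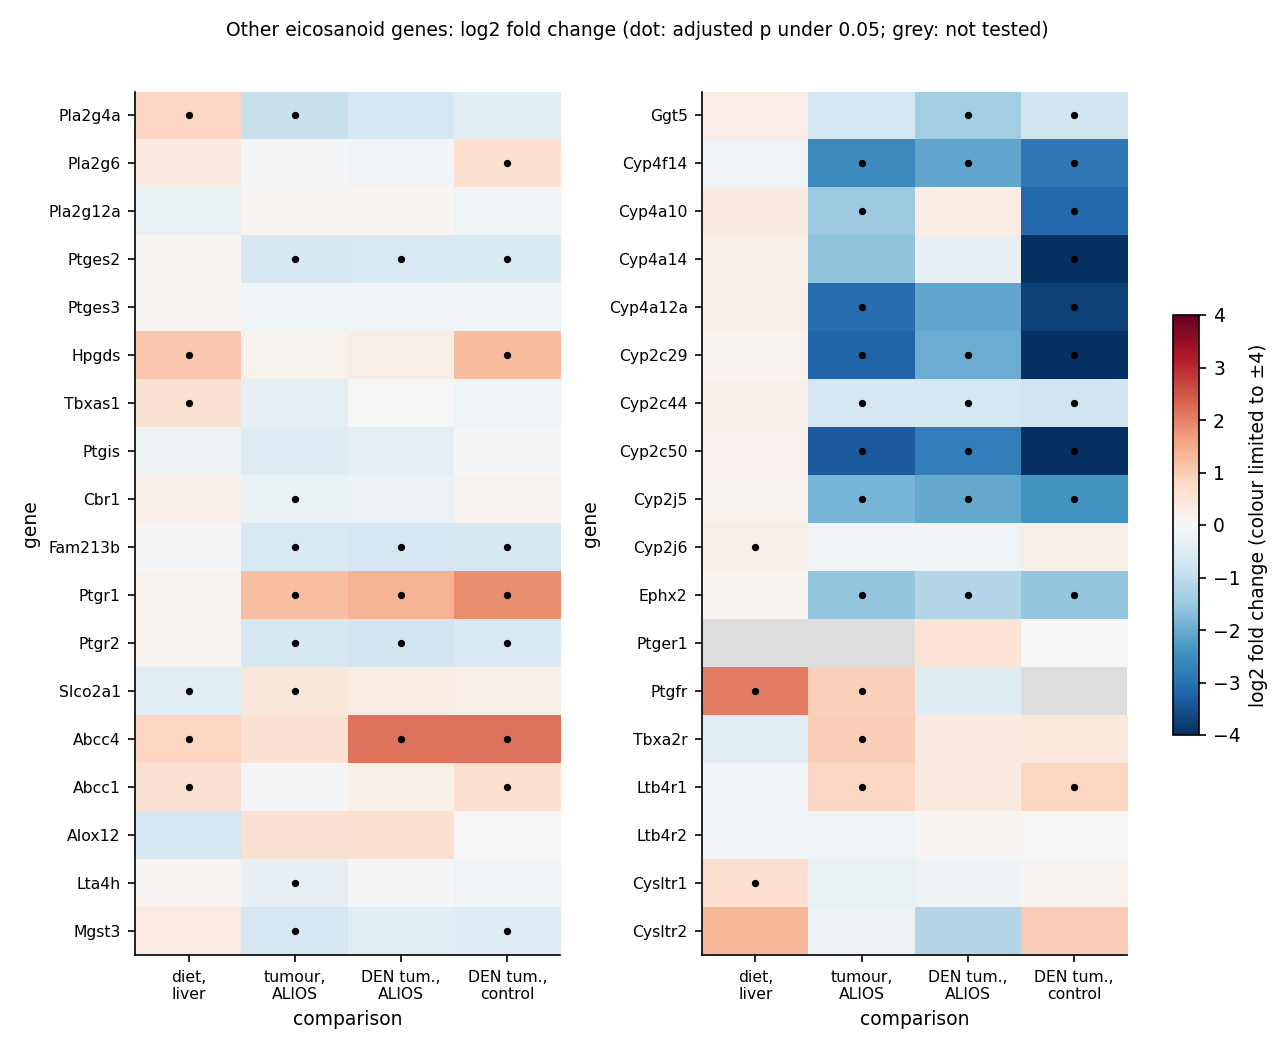
Log2 fold change (colour, limited to ±4) of the 36 pathway genes other than the members that passed the filter in at least 1 of 4 comparisons (columns), with a dot where the adjusted p was under 0.05 and grey where a gene was not tested. The P450 branch genes are near white for diet in liver and mostly blue in the tumour columns, except for Cyp2j6 (-0.15 to 0.22) and, in ALIOS DEN tumours, Cyp4a10 (0.31) and Cyp4a14 (-0.32), and Ptgr1 is red in all 3 tumour columns. Both exceptions in ALIOS DEN tumours include T24, which was far above the rest of its group in Cyp4a10 (541 CPM) and Cyp4a14 (145 CPM).

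Diet in non-tumour liver is a contrast that did not choose the members, and 6 of the 10 passed its filter. Ptgs1 was higher in ALIOS than in control livers, by 0.50 on the log2 scale (SE 0.13, adjusted p = 0.0165, quasi-likelihood test of edgeR, adjusted by Benjamini-Hochberg), with 10 of 11 ALIOS livers above the control median and 5 above the highest control liver. It was the only one of the 6 to rise, where 6.73% of all genes rose and 4.51% fell, and none fell. The others were Ptgds at -0.95 (SE 0.46, adjusted p = 0.164), Ptges at -0.37 (SE 0.25, adjusted p = 0.339), Alox5ap at 0.35 (SE 0.24, adjusted p = 0.338), Ptger2 at 0.20 (SE 0.12, adjusted p = 0.257) and Hpgd at 0.10 (SE 0.10, adjusted p = 0.541). The Ptgds difference shrank to -0.25 without N7. Ptger4 failed the filter, but without it was 1.71 higher on the log2 scale in ALIOS livers (SE 0.52, adjusted p = 0.0480), with N17 (1.56 CPM) and N19 (1.43 CPM) far above the other livers. The call of Ptgs1 was lost when all groups were fitted together (adjusted p = 0.196) and kept without N19, the highest liver at 23.8 CPM (0.39, adjusted p = 0.0316).

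Among the other pathway genes 8 of 35 rose and 1 fell with the ALIOS diet. The prostaglandin F receptor Ptgfr rose most, from a median of 0.229 CPM (0 to 0.436) to 0.856 CPM (0.348 to 1.61), a log2 fold change of 2.07 (SE 0.38, adjusted p = 0.00229), with 9 of 11 ALIOS livers above every control liver. Hpgds rose by 1.07 (SE 0.30, adjusted p = 0.0237), Abcc4 by 0.85 (SE 0.18, adjusted p = 0.00579) and the phospholipase Pla2g4a, which releases arachidonic acid, by 0.83 (SE 0.24, adjusted p = 0.0272). Cysltr1, a receptor of cysteinyl leukotrienes, rose by 0.68, the leukotriene C4 exporter Abcc1 by 0.62, the thromboxane synthase Tbxas1 by 0.60 and the epoxygenase Cyp2j6 by 0.22, while the prostaglandin uptake transporter Slco2a1 fell by 0.46, with adjusted p-values of 0.0489, 0.0314, 0.0423, 0.0467 and 0.0403 from edgeR. With 1 of the 23 livers left out in turn the call was lost in 19 fits for Cysltr1, 16 for Cyp2j6, 14 for Tbxas1, 11 for Slco2a1, 6 for Abcc1 and 2 (N17 or N19) for Hpgds and Pla2g4a. Without the filter on low counts Cysltr1 (adjusted p = 0.0739), Cyp2j6 (0.0710), Tbxas1 (0.0555) and Slco2a1 (0.0551) were not called. Leaving out the ALIOS liver N17 or N19 left 2 calls in place of 9, and fitting all groups together also left 2, Ptgfr and Hpgds. Cysltr2, another leukotriene receptor, split the livers. It was at 0.0724 to 0.202 CPM in control livers N1 to N4, N11 and N12, and at 2.63 CPM or more in every other liver. Tumours T7 and T24 to T27 were also low, at 0.142 to 0.430 CPM. The split is uneven between the diets in livers and in DEN tumours. It is also uneven between DEN and spontaneous ALIOS tumours, and between DEN tumours and livers of each diet. Its cause and its part in the values of these comparisons were not tested.

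Markers of other cell types differed between the diets too. All 5 Kupffer cell markers had a higher median in ALIOS livers, their sum running from 148 to 297 CPM with a median of 211 in control livers and from 207 to 736 CPM with a median of 320 in ALIOS livers. The same held for the 5 macrophage markers (medians of the sum 93.8 and 147 CPM) and the 5 recruited macrophage markers (4.01 and 11.6 CPM), and none of the 15 was at 0 in a group. All 5 cholangiocyte, 4 of 5 endothelial, 4 of 5 stellate cell and fibroblast and 5 of 6 neutrophil markers also had a higher median in ALIOS livers, and 5 of 6 hepatocyte markers a lower one. N19, the highest in Ptgs1, Ptgfr, Abcc4, Pla2g4a and Tbxas1, was highest in the Kupffer cell and macrophage sums. The part of these cells in the diet values was not tested.

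Between DEN and spontaneous tumours of ALIOS fed mice no member was called among the 8 tested, nor was any gene of all those tested (0% of 14845) by edgeR's quasi-likelihood test, while DESeq2 called 75 genes and none of the members. At an unadjusted p under 0.05 there was 1 member, Ptges, which was 1.42 higher in DEN tumours (SE 0.63, adjusted p = 0.607) and 0.39 higher without T24. Alox5 differed by 0.22 (SE 0.78, adjusted p = 0.9996) and Hpgd by -0.18 (SE 0.31, adjusted p = 0.9996).

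Diet in DEN tumours gave 2 calls in 14944 genes (0.0134%), none of them a member or a pathway gene. Hpgd had the smallest unadjusted p of the members, and the only one under 0.05. It was higher on the ALIOS diet by 0.65 (SE 0.21, unadjusted p = 0.00761, adjusted p = 0.392), with 6 of 8 ALIOS tumours above the highest control diet tumour and all 8 above the control median. Alox5 was lower on the ALIOS diet by 0.98 (SE 0.76, adjusted p = 0.814), with 5 of 8 tumours below the lowest control diet tumour. By DESeq2, which called 152 genes, no member passed either.

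The interaction, which asks whether diet acted differently in DEN tumours and in livers, called 2.27% of 15606 genes and none of the 9 members tested (edgeR, and none by DESeq2). Ptgds (2.68, SE 1.26, adjusted p = 0.262), Ptges (1.50, SE 0.68, adjusted p = 0.251) and Hpgd (0.54, SE 0.20, adjusted p = 0.154) had an unadjusted p under 0.05. Without T25 the value of Ptgds was 1.25, and without T24 that of Ptges was 0.46. The fatty acid hydroxylase Cyp4a14 was the 1 pathway gene called (5.20, SE 1.38, adjusted p = 0.0358). Its level was 145 CPM in T24 and at a median of 2.70 CPM in the ALIOS DEN tumours, and the call was lost without T24, where the difference was 2.78, without T17, T18, T20 or T21 (adjusted p = 0.0557 to 0.0842), and when all groups were fitted together (adjusted p = 0.0843).

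Tumours of 1 group also varied among themselves. The spontaneous ALIOS tumours with the least Alox5, T2, T6 and T5, had the most Hpgd, at 73.9, 72.4 and 68.3 CPM, within the range of control livers and under every ALIOS liver. Over the 12 tumours log2 CPM of Alox5 and Hpgd had r = -0.82 and rho = -0.82, and r = -0.68 without the 2 tumours farthest from the median of Alox5. Over the 8 ALIOS DEN tumours r was -0.30 and rho -0.21, and r was -0.44 without the 2 tumours farthest from the median of Alox5 and -0.04 without those farthest from that of Hpgd. In each tumour both values come from the same library, and these relations were not tested.

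Tumour markers varied with Alox5 in the spontaneous ALIOS tumours. T2, T6 and T23 were the lowest of all 26 tumours in Igdcc4 (0.187, 1.81 and 2.54 CPM), the gene also called Nope, and in Gpc3 (2.13, 2.79 and 6.93 CPM). Over the 12 spontaneous ALIOS tumours r with Alox5 was 0.96 for Igdcc4, 0.93 for Afp, 0.91 for Gpc3 and 0.49 for the proliferation marker Mki67. These were 0.84, 0.86, 0.61 and 0.27 without the 2 tumours farthest from the median of Alox5. In the 8 ALIOS DEN tumours r with Alox5 was 0.77 for Igdcc4, 0.54 for Mki67, 0.09 for Gpc3 and -0.12 for Afp. Without the 2 tumours farthest from the median of Alox5 these became 0.80, 0.53, -0.36 and -0.80, so of the 4 genes Afp and Gpc3 did not keep the sign they had in spontaneous tumours.

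**Figure D5:**
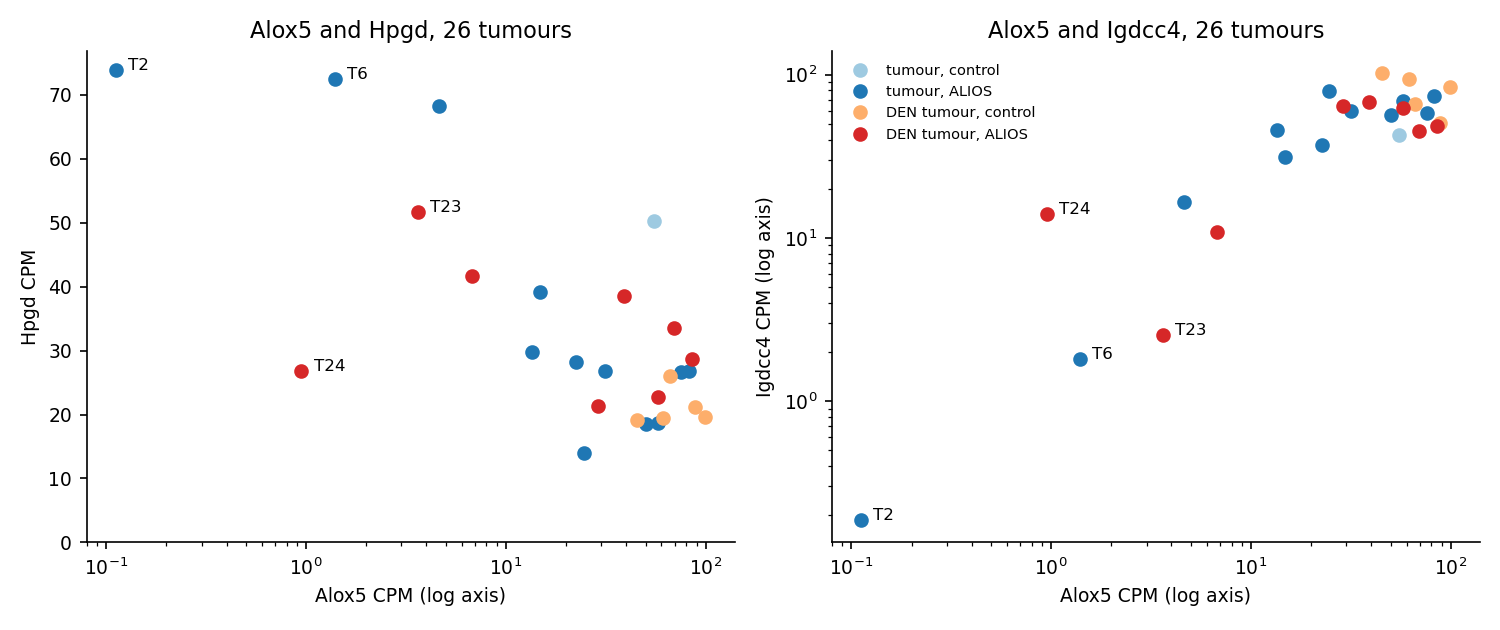
Hpgd (left, CPM) and Igdcc4 (right, CPM on a log axis) against Alox5 (CPM on a log axis) in the 26 tumours, coloured by group. T2, T6 and T23 combine low Alox5 with low Igdcc4 and high Hpgd, whereas T24 is low in Alox5 and has 26.8 CPM of Hpgd.

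The genes whose pattern was most like that of Alox5 were found by the correlation of log2 CPM after the mean of each group was subtracted, over 48 libraries and 12595 other genes. They were Mtcl1 (r = 0.925), Prom2 (0.924), Kctd3 (0.878), 5730559C18Rik (0.870) and Itih5 (0.866). Prom2 had a median of 0.0369 CPM in control livers (highest 0.127) and 68.4 CPM in control diet DEN tumours (41.8 to 74.3), and was at 0.0374 CPM in T2. Mtcl1 had 0.212 CPM (highest 0.546) and 39.3 CPM (27.5 to 55.6) in these groups. Igdcc4 ranked 29th at 0.829 and the pathway gene Ptgr1 182nd at 0.734. Hepatocyte markers ran from -0.265 (Ttr) to 0.703 (Alb) and Kupffer cell markers from -0.508 (Timd4) to -0.428 (Clec4f). Macrophage markers ran from -0.492 (Csf1r) to 0.541 (Cd14) and recruited macrophage markers from -0.343 (Cd44) to 0.205 (Itgax). What these relations reflect was not tested. Of the other members that could be ranked, Ptges (-0.386), Alox5ap (-0.386), Ptgs1 (-0.468) and Hpgd (-0.596) all had a negative r. The window before the start of Prom2 (chr2:127541418-127541667, minus strand, RefSeq, GRCm38.p6) is shown beside that of Alox5 because the genes varied together.
Prom2: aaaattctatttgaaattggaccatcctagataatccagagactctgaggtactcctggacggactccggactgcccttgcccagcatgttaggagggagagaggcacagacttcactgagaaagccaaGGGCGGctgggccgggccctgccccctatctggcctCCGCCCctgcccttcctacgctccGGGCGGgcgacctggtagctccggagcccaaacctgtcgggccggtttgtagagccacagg
It held the GC box 3 times, at 121, 85 and 61 bases before the start, where Alox5 held it once. The windows of Mtcl1, Kctd3 and Itih5 also held it, so 4 of the 4 like genes with a window did, beside 32.7% of all windows. These windows had 25 CpG in Mtcl1, 16 in Kctd3, 12 in Prom2 and 7 in Itih5, where the median of all windows was 6. The share of all windows was not matched for CpG, and no excess of the GC box was tested.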

How the data were processed

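RNA-seq libraries of 50 liver or tumour samples were grouped by the labels of diet, tissue and DEN. For each gene the authors deposited a raw count, not normalized, made with STAR (2-pass mapping to mm10) and HTSeq on the exons of Gencode M6, with versions and strand option not given in the sources used here. The sum of a library's counts was taken as its depth. Intervals are not given, since counts carry counting error and no molecular identifiers.

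Counts were tested with edgeR 4.0.16 (filterByExpr, TMM, glmQLFit, glmQLFTest; limma 3.58.1, R 4.3.3), only the groups compared entering each of 7 fits, with Benjamini-Hochberg adjustment over all genes tested and a call at an adjusted p under 0.05. The study used DESeq2, run here in version 1.42.0 as an alternative beside RLE factors, no filter, all groups together, T1 kept, and each library left out in turn (each liver for diet in liver, and each tumour, but no liver, for the other comparisons). CPM used TMM library sizes, and log2 CPM a prior count of 2. Exon lengths, positions and overlaps came from Gencode M21 (GRCm38), whose gene models can differ from M6. Fits were tested on simulated data. Levels and figures used Python 3.11.15 and matplotlib 3.10.9.

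The members, the pathway list and the marker lists were chosen with earlier results of these data known. Named were all members, pathway genes called in contrasts that did not choose the members, the 3 highest and 3 lowest called pathway genes of each tumour contrast, and the 5 genes most like Alox5 among those of at least 1 CPM on average.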

Additional observations from a re-analysis of the deposited data

Results flagged for a closer look

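Data outside the comparisons also held signal of the members above every non-tumour liver. The single control diet tumour T7, which has no replicate, had 55.3 CPM of Alox5. The library labelled T1, which was left out for its kidney transcripts, had 6.44 CPM of Alox5, 2.65 CPM of Ltc4s, 0.739 CPM of Ptgs2, 9.50 CPM of Ptges and 1.81 CPM of Ptger4, each above the highest liver. Cyp4a14 was the pathway gene whose diet effect differed between DEN tumours and livers by the test of the difference itself, at 5.20 on the log2 scale (edgeR, adjusted p = 0.0358), but the call was lost without the tumour T24, where the difference was 2.78, without T17, T18, T20 or T21, and with all groups fitted together (adjusted p = 0.0843). Dixon's criterion for a library lying away from its group, applied to the 10 members in both DEN tumour groups (20 sets of log2 CPM), picked none, where chance alone gives about 1 in 20.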

How the results depend on the processing

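Depth limited Ptgs2, Ltc4s, Ptger4 and the livers' Alox5, which rest on a few reads each. The number of genes called for diet in liver was 1542, and it was 2415 by DESeq2 and 602 with all groups fitted together, where 2 in place of 9 pathway genes were called. Between DEN and spontaneous tumours DESeq2 called 75 genes and the joint fit 268 (1 pathway gene) in place of 0. For diet in DEN tumours the count of 2 became 1 without a filter, 152 by DESeq2 and 228 jointly, with 1 pathway gene in each of the latter. The interaction count of 354 became 646 by DESeq2, with 4 pathway genes in place of 1 and 0 in the joint fit. With each library left out in turn (livers for diet in liver, tumours alone elsewhere) the counts ran from 949 (without N17) to 2343 (without N13) for diet in liver, with 2 (without N17 or N19) to 10 pathway genes, and 5 without N1, N2, N5, N11, N12, N18, N20 or N22, from 0 to 15 for DEN against spontaneous tumours, from 0 to 19 for diet in DEN tumours, and from 174 (without T17) to 732 (without T24) for the interaction, with 0 to 3 pathway genes. The counts of the 3 tumour against liver comparisons stayed within 1.5 times, at 7056 to 7919, 6270 to 7610 and 6986 to 7637. The cause of these shifts was not tested.

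Keeping T1 turned the DEN minus spontaneous differences of Ltc4s to -0.13, of Ptger2 to 0.009 and of Ptger4 to -0.16, all far from the threshold, and the interaction of Alox5ap, at -0.001, was 0.001 both without a filter and with all groups fitted together. Leaving out 1 library turned the sign of small differences only. Against livers the ranges were -0.022 to 0.42 for Ptger4 in ALIOS DEN tumours, -0.397 to 0.038 for Alox5ap and -0.263 to 0.128 for Ptgs1 in control diet DEN tumours. For DEN against spontaneous tumours the ranges were -0.10 to 0.44 for Alox5, -0.37 to 0.47 for Alox5ap, -0.069 to 0.25 for Ptgs1, -0.40 to 0.091 for Ptger2 and -0.26 to 0.21 for Ptger4. For diet in DEN tumours they were -0.35 to 0.65 for Alox5ap and -0.16 to 0.75 for Ptger2, and for the interaction -0.71 to 0.29 and -0.38 to 0.53 for the same genes. Alox5 could not be fitted with T7 and all 23 livers, since it then failed the filter. No paired analysis was possible because the labels do not tie a tumour to the liver of the same mouse.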
